A study of Mus musculus with 10 samples.

Results

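Hepatic stellate cells are the pericytes of the liver sinusoid, and with other mesenchymal cells they make much of the liver's extracellular matrix. The 35 genes described here are 8 stellate cell markers and 27 genes of stellate activation, collagens, proteoglycans, matrix glycoproteins, matrix proteases and their inhibitors. They were picked by gene symbol from 47702 genes in the deposited table, and each matched 1 row. RNA came from livers of female mice with a full-body Etnppl knockout (KO, 5 libraries) and of wild-type females (WT, 5 libraries), all kept on chow for 20 weeks. The product of Etnppl is the enzyme ethanolamine-phosphate phospho-lyase. Neither the strain, the design of the targeted allele, the age of the animals nor the number of animals behind a library is given in the sources used here, and p-values therefore refer to the spread among libraries, part of which may be technical.

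In a healthy liver stellate cells store vitamin A as retinyl esters. After injury they lose these stores, become contractile cells that contain smooth muscle actin, and secrete fibrillar collagen under the influence of TGF-beta and PDGF. Sinusoidal endothelium and portal fibroblasts make part of the same matrix, and hepatocytes make plasma fibronectin and collagen XVIII. In bulk liver RNA, fewer cells of a type and less RNA per cell cannot be told apart.

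The knockout livers showed few changes among these genes. Reln, a stellate marker, fell to 83.1% of the WT mean, and Bgn, a matrix proteoglycan, to 80.0%. Sparc, a collagen-binding matrix protein, rose to 120.2% of the WT mean. No collagen chain, activation marker, protease or protease inhibitor passed the test. Values are FPKM, in which fragment numbers are divided by the length of the transcript and the library's total, and a difference is of log2(FPKM + 0.5), KO minus WT. A gene was called at an adjusted p under 0.05 (limma, Benjamini-Hochberg over the 12247 genes whose mean reached 0.5 FPKM). Of the members 34 passed that filter. Timp1 did not, and Col1a1 passed with a mean of 0.602 FPKM in KO and 0.476 FPKM in WT. By this rule 1 member rose, 2 fell and 31 were not called. Over all genes tested 8.54% were called, 3.98% higher and 4.56% lower, so the members' 8.82% lay near the background and does not set them apart. Their median log2 difference was -0.018, against -0.02 over all genes tested, and the median absolute difference was 0.13 against 0.12.

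Etnppl itself was lower in every KO library. It measured 26.43, 21.97, 18.88, 25.74 and 17.72 FPKM in KO, against 60.27, 69.73, 108.39, 47.24 and 43.32 FPKM in WT (exact permutation test, two-sided, p = 0.0079, the smallest that 252 arrangements allow). Read totals per library are not used here. Relative depth was estimated from 27 low genes, on the assumption that their values stand for 1 fragment. The estimate ranged from 0.898 to 1.102 and averaged 0.958 in KO and 1.047 in WT. These genes were chosen for positive values close to each other, which limits the spread of depth that could be seen. No 2 libraries held identical values, and Spearman correlations across genes were 0.977 to 0.988 within and 0.974 to 0.983 between genotypes.

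The 250 bases before the RefSeq start sites of Reln and Bgn are shown because these are the members that fell. Both are GC-rich, with 80.0% and 64.4% G or C, against a median of 52.4% over 32851 windows of the same length. Capitals mark the GC box GGGCGG on either strand, which 32.7% of those windows hold. Sequences are from RefSeq (GRCm38.p6), on the gene's own strand, 5′ to 3′.
Reln, minus strand, chr5:22344706-22344955: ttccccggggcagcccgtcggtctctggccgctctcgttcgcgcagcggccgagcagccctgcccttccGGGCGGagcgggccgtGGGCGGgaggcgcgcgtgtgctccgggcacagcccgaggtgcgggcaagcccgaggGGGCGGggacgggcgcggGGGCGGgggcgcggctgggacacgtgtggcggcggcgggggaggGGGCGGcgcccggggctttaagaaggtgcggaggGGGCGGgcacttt
Bgn, plus strand, chrX:73483351-73483600: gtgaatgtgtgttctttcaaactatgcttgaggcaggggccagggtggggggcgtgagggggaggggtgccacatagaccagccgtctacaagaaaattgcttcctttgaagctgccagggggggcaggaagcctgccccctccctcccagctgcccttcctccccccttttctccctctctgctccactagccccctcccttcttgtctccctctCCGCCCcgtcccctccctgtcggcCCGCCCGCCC
Reln held 6 matches and Bgn 3, the last pair of which overlap. Neither window held TATAAA or CCAAT on either strand, which 12.4% and 33.8% of all windows hold. The window listed for Sparc, which lies inside the annotated gene and overlaps one of its exons and is therefore not shown, held none of the 3 motifs. The 27 members with a window in the table had 30 windows, of which 17, from 16 genes, held a GC box, 3 TATAAA and 10 CCAAT. A match describes the letters only and is not evidence of binding.

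Among the 8 stellate markers, 1 fell, none rose and 7 were not called (8.54% background). Reln, which encodes reelin, a large secreted glycoprotein, lies on chromosome 5 from 21884454 to 22344702 (minus strand, mm10). Its level was 14.01, 13.12, 12.02, 14.77 and 14.27 FPKM in KO, against 15.39, 16.13, 15.30, 16.91 and 18.36 FPKM in WT. Every KO library lay below every WT library, by a gap of 14.77 to 15.30 FPKM at the nearest point. The difference passed the test (log2 difference -0.26, SE 0.07, limma adjusted p = 0.047). This call held without WT 3 and was lost without any other single library (adjusted p up to 0.11, log2 difference -0.29 to -0.22). It was also lost after each of 3 scalings of the libraries (adjusted p 0.0505 to 0.0572) and without the filter on low values (adjusted p 0.080). With the replicate number as a block the call of Reln was lost too (limma adjusted p = 0.063). An annotated gene, Gm10475, overlaps Reln exons on the opposite strand.

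Lrat, which makes the retinyl esters that stellate cells store, measured 2.71 ± 0.325 FPKM in KO and 2.77 ± 0.464 FPKM in WT (SD, n = 5 each), a log2 difference of -0.023 with a 95% interval from -0.28 to 0.23. Hgf, the growth factor that hepatocytes receive from stellate cells, was at 4.33, 4.02, 5.59, 5.05 and 4.68 FPKM in KO and at 4.95, 4.69, 5.08, 6.38 and 6.63 FPKM in WT. The groups overlapped, and the difference did not pass (log2 difference -0.20, SE 0.11, limma adjusted p = 0.30). Rgs5, a regulator of G protein signalling found in pericytes, was at 11.72 to 13.75 FPKM in KO and 10.48 to 16.38 FPKM in WT. Desmin (Des), the intermediate filament of stellate and muscle cells, was at 1.42 to 2.34 FPKM in KO and 1.75 to 2.46 FPKM in WT. The PDGF receptors were low and close between genotypes, with Pdgfra at 1.52 ± 0.152 and Pdgfrb at 1.61 ± 0.152 FPKM in KO, against 1.66 ± 0.130 and 1.60 ± 0.287 FPKM in WT (SD, n = 5 each). Ngfr, the p75 neurotrophin receptor, was at 1.79 to 2.52 FPKM in KO and 1.27 to 2.63 FPKM in WT. Of the 8 markers, 6 had a negative and 2 a positive log2 difference, with a median of -0.08.

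**Figure D1:**
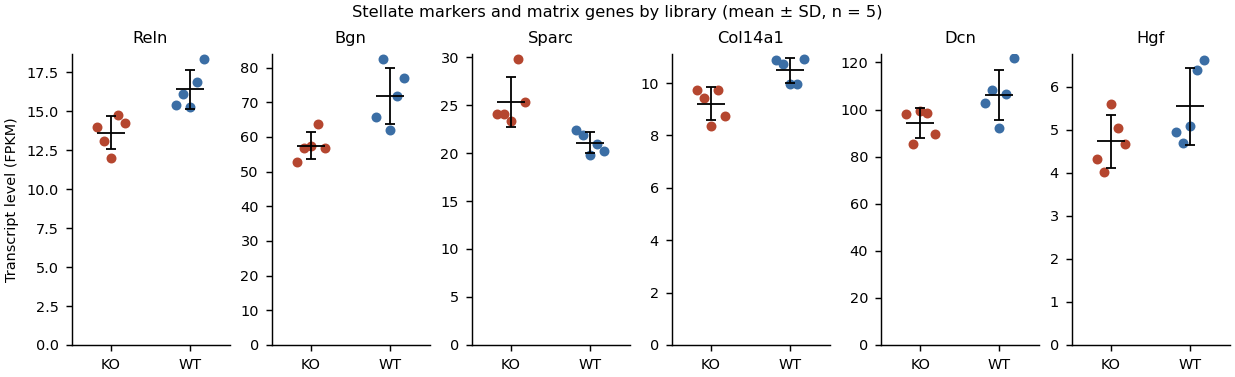
Transcript level in FPKM (vertical axes from 0, one scale per gene) of 6 members in 5 KO and 5 WT libraries; points are libraries, bars the mean and SD. KO and WT libraries do not overlap for Reln, Sparc and Col14a1 and overlap for Bgn, Dcn and Hgf.

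None of the 3 genes of activation and signalling was called by limma, and none had an unadjusted p under 0.05. Acta2, the smooth muscle actin of activated stellate cells and of vessel walls, was at 2.63, 1.91, 2.37, 2.10 and 1.69 FPKM in KO, against 1.86, 1.13, 1.87, 1.79 and 2.12 FPKM in WT. The ranges overlapped, and WT 2 was the lowest library (log2 difference 0.23, 95% interval -0.07 to 0.54, limma adjusted p = 0.33). Vim, the filament protein vimentin of mesenchymal cells, endothelium and leukocytes, was at 12.02 ± 1.48 FPKM in KO and 11.90 ± 1.31 FPKM in WT (SD, n = 5 each). Tgfb1, the main profibrotic cytokine of the liver, was at 8.03 ± 0.537 FPKM in KO and 7.90 ± 0.955 FPKM in WT (SD, n = 5 each). Their 95% intervals, -0.20 to 0.22 for Vim and -0.16 to 0.21 for Tgfb1, leave out larger differences.

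The fibrillar collagens form the cable-like fibres that accumulate in fibrosis, and all 5 chains were low in these livers, at means of 0.539 to 2.01 FPKM over the 10 libraries. None was called by limma, and none had an unadjusted p under 0.05. Col1a1, a chain of collagen I, measured 0.51, 0.35, 0.69, 0.85 and 0.61 FPKM in KO and 0.57, 0.52, 0.35, 0.44 and 0.50 FPKM in WT. Its highest values were in KO 4, KO 3 and KO 5, while KO 2 was level with the lowest WT library (log2 difference 0.16, SE 0.13, limma adjusted p = 0.50). Col1a2, the partner chain, measured 1.79, 0.91, 1.4, 1.37 and 1.22 FPKM in KO and 1.56, 1.65, 1.22, 1.4 and 1.54 FPKM in WT (log2 difference -0.12, SE 0.13, limma adjusted p = 0.63). Col3a1, the chain of collagen III, ranged more widely, with 1.90, 0.82, 1.57, 3.04 and 1.88 FPKM in KO and 3.68, 2.06, 1.59, 1.71 and 1.85 FPKM in WT. KO 2 was the lowest and WT 1 the highest library, and the 95% interval of the log2 difference was -0.77 to 0.34. Col5a1 and Col5a2, chains of collagen V that help set fibril width, were at 0.98 ± 0.20 and 1.02 ± 0.399 FPKM in KO, against 0.92 ± 0.150 and 0.91 ± 0.188 FPKM in WT (SD, n = 5 each).

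**Figure D2:**
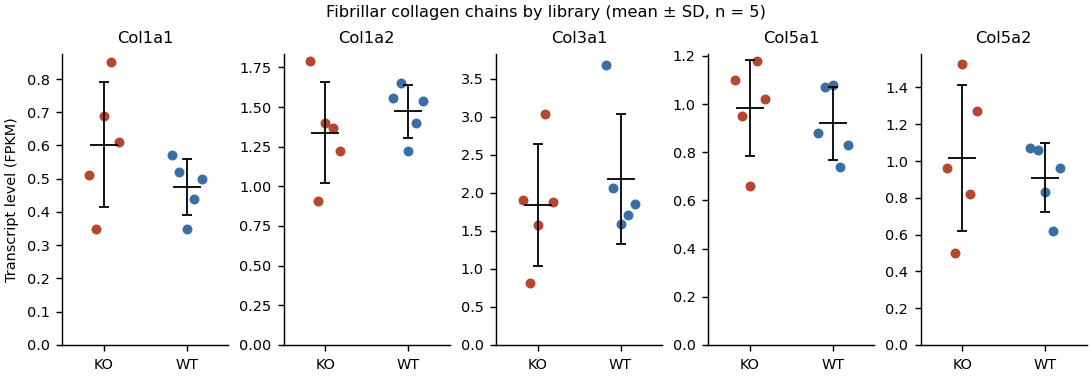
Transcript level in FPKM (vertical axes from 0, one scale per gene) of the 5 fibrillar collagen chains in 5 KO and 5 WT libraries; points are libraries, bars the mean and SD. The genotypes overlap for each chain, and KO 2 and WT 1 are the lowest and highest libraries for Col3a1.

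The levels of 4 pairs of collagen chains were compared within libraries, since a ratio of 2 genes does not depend on how libraries are scaled. The Col1a1 to Col3a1 ratio was 0.348 ± 0.0808 in KO and 0.231 ± 0.0464 in WT (SD, n = 5 each, log2 ratio difference 0.59). The KO libraries spanned 0.268 to 0.440 and the WT libraries 0.155 to 0.270, which barely overlap. An exact permutation test, two-sided, returned p = 0.016, and 0.064 after adjustment over the 4 ratios. The Col1a1 to Col1a2 ratio was 0.457 ± 0.127 in KO and 0.321 ± 0.0284 in WT (exact permutation p = 0.071, adjusted 0.14). The Col4a1 to Col4a2 ratio was 1.78 ± 0.169 in KO and 1.82 ± 0.382 in WT (exact permutation p = 0.96, adjusted 0.96), and that of Col6a1 to Col6a2 was 1.93 ± 0.242 in KO and 1.74 ± 0.181 in WT (exact permutation p = 0.18, adjusted 0.24).

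Some chains varied together from library to library. Over the 10 libraries Col6a1 and Col6a2 had r = 0.858 and rho = 0.821 (permutation p = 7.1e-04 and 0.0058, adjusted over 4 pairs 0.0028 and 0.023). Col4a1 and Col4a2 had r = 0.695 and rho = 0.717 (permutation p = 0.026 and 0.024, adjusted 0.052 and 0.048). Without the 2 libraries farthest from the median of the first chain, r was 0.773 for the Col6 pair (KO 2 and WT 5 left out) and 0.747 for the Col4 pair (WT 3 and WT 4 left out), both with an adjusted permutation p of 0.068. Col1a1 and Col3a1 had r = 0.632 and rho = 0.541 (permutation p = 0.049 and 0.11, adjusted 0.066 and 0.15). Their r dropped to 0.221 without KO 2 and KO 4, so that no clear relation was seen in the remaining 8 libraries. Leaving out the extremes of Col1a1 also narrows its range, which by itself can lower r. Col1a1 and Col1a2 had r = 0.342 and rho = 0.205 (permutation p = 0.33 and 0.57, adjusted 0.33 and 0.57), and r was 0.145 without KO 2 and KO 4. Taken as deviations from the genotype mean, r was 0.543, 0.837, 0.676 and 0.825 for the Col1a1 and Col1a2, Col1a1 and Col3a1, Col4 and Col6 pairs (adjusted permutation p = 0.20, 0.019, 0.019 and 0.019). These values include KO 2 and KO 4 and were not computed without them. The 2 chains of a pair share each library's depth and tissue sampling, and the annotated 5′ ends of Col4a1 and Col4a2 overlap by 22 bases on opposite strands.

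All 4 collagens of basement membrane zones had a positive difference, and none was called by limma or had an unadjusted p under 0.05. Col18a1, whose product yields endostatin, was the second most abundant member at 194 ± 11.0 FPKM in KO and 183 ± 8.88 FPKM in WT (SD, n = 5 each, log2 difference 0.08, 95% interval -0.03 to 0.20). Col4a1, the network-forming chain of basement membranes, was at 7.25 to 10.30 FPKM in KO and 5.56 to 11.35 FPKM in WT, and Col4a2 at 3.74 to 5.57 FPKM in KO and 3.74 to 4.65 FPKM in WT. Col15a1, a collagen of vessel basement membranes, was at 2.46, 2.78, 2.67, 2.74 and 2.79 FPKM in KO and 2.71, 3.74, 1.42, 1.71 and 2.04 FPKM in WT. The KO values of Col15a1 lay close together, with a coefficient of variation of 5.06%, and the WT values were spread around them, with one of 39.8%. Whether the spread itself differed was not tested.

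Of the other 4 collagens, 3 had a negative difference and none was called. Col14a1, a collagen that binds to the surface of fibrils, was at 9.75, 9.45, 8.36, 9.74 and 8.73 FPKM in KO, against 10.88, 10.73, 9.95, 9.98 and 10.92 FPKM in WT. The libraries did not overlap, but the difference missed the threshold (log2 difference -0.18, SE 0.06, limma adjusted p = 0.10). Without overlap in either direction were 3 of the 34 members, 1 higher and 2 lower in KO, against 8.87% of all genes tested, 4.08% higher and 4.78% lower. The collagen VI chains, which form beaded filaments around cells, were at 1.77 ± 0.346 FPKM for Col6a1, 0.93 ± 0.253 for Col6a2 and 1.53 ± 0.741 for Col6a3 in KO, and at 2.0 ± 0.208, 1.15 ± 0.135 and 1.28 ± 0.185 FPKM in WT (SD, n = 5 each). Col6a3 was at 2.80 FPKM in KO 4 and at 0.98, 1.15, 1.16 and 1.56 FPKM in the other KO libraries. Without KO 4 its log2 difference was -0.06, against 0.13 with all libraries.

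The 3 small leucine-rich proteoglycans, which bind collagen fibrils and growth factors, all had a negative difference, and 1 fell. Over all genes tested 54.3% had a negative difference and 4.56% were called lower, and 3 genes are too few for a share. Bgn, biglycan, lies on chromosome X from 73483602 to 73495933 (plus strand, mm10). It measured 52.76, 56.88, 57.28, 63.67 and 56.73 FPKM in KO, against 65.80, 82.39, 62.08, 71.82 and 76.85 FPKM in WT. The groups overlapped only in KO 4 and WT 3, and the difference passed the test (log2 difference -0.31, SE 0.08, limma adjusted p = 0.034). Bgn stayed called after the 3 scalings and without KO 4, WT 1 or WT 3, and lost its call without any of the other 7 libraries (adjusted p up to 0.079, log2 difference -0.36 to -0.26). The call was also lost without the filter on low values (adjusted p 0.065) and with the replicate number as a block (limma adjusted p = 0.056). Dcn, decorin, which can bind TGF-beta, was at 98.13, 85.32, 99.40, 98.37 and 89.48 FPKM in KO and at 102.97, 108.24, 92.15, 106.56 and 121.72 FPKM in WT. WT 3 lay inside the KO range, and the difference did not pass (log2 difference -0.17, SE 0.07, limma adjusted p = 0.18). Lum, lumican, was at 1.96 to 3.11 FPKM in KO and 2.25 to 3.25 FPKM in WT.

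Of the 3 matrix glycoproteins, 1 rose, where 3.98% of all genes tested were called higher, and 3 genes are too few for a share. Sparc, also called osteonectin, lies on chromosome 11 from 55394500 to 55423183 (minus strand, mm10). It measured 24.04, 24.08, 23.32, 29.81 and 25.29 FPKM in KO, against 22.36, 21.92, 19.81, 20.96 and 20.21 FPKM in WT. Every KO library lay above every WT library, and KO 4 was the highest. The difference passed the test (log2 difference 0.26, SE 0.07, limma adjusted p = 0.045). The call held after the 3 scalings and without KO 3, and was lost without any of the other 9 libraries (adjusted p up to 0.10, log2 difference 0.20 to 0.28). It was also lost without the filter on low values (adjusted p 0.082) and with the replicate number as a block (limma adjusted p = 0.091). Fn1, fibronectin, was the most abundant member, at 410 ± 14.8 FPKM in KO and 406 ± 32.9 FPKM in WT (SD, n = 5 each), with a 95% interval of -0.11 to 0.15 for the log2 difference. Ecm1, which in mouse liver limits the activation of latent TGF-beta, was at 110.57 to 127.15 FPKM in KO and 107.06 to 160.50 FPKM in WT (log2 difference -0.14, SE 0.09, limma adjusted p = 0.39).

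No tested protease or inhibitor was called by limma, and none had an unadjusted p under 0.05. Timp2, an inhibitor that also helps to activate the gelatinase Mmp2, was at 3.76, 3.76, 4.35, 3.71 and 3.66 FPKM in KO and 4.27, 4.45, 4.34, 3.92 and 4.40 FPKM in WT. All KO libraries but KO 3 lay below the WT range (log2 difference -0.14, SE 0.07, limma adjusted p = 0.27). Timp3, the inhibitor bound to matrix, averaged 5.28 FPKM in each genotype, with a 95% interval of -0.15 to 0.15. Timp1, the inhibitor induced in injured liver, was listed at 0, 0.06, 0.07, 0.41 and 0 FPKM in KO and at 0.07, 0, 0, 0.30 and 0.15 FPKM in WT, too low for a test. Mmp14, the membrane protease that activates Mmp2, was at 22.40 to 28.16 FPKM in KO and 25.01 to 30.19 FPKM in WT, and Mmp2 at 0.65 to 1.02 FPKM in KO and 0.62 to 1.09 FPKM in WT.

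**Figure D3:**
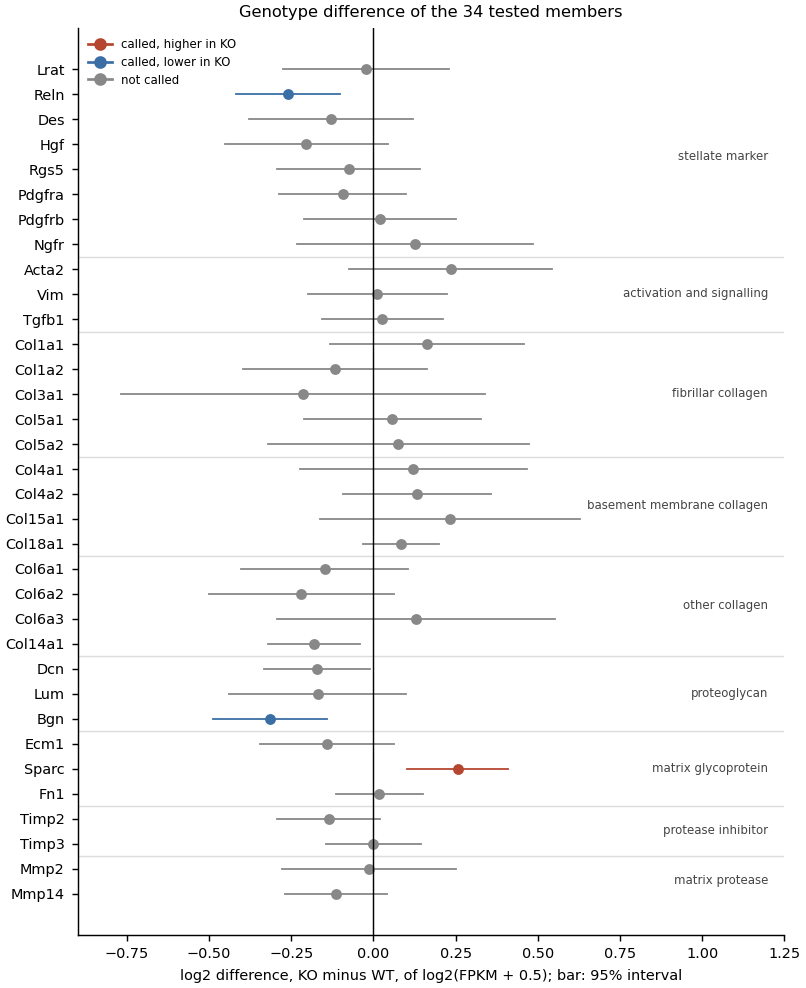
Log2 difference (KO minus WT, horizontal axis) of the 34 tested members, grouped by role; points are estimates and bars their 95% intervals from limma. Reln and Bgn are called lower and Sparc higher. Among the other 31, the intervals of Col14a1 and Dcn lie below 0 and the rest include 0.

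Levels per transcript length spanned 0.106 FPKM (Timp1) to 408 FPKM (Fn1) as means over all libraries, with 4 members over 100 FPKM and 13 under 2 FPKM. Of the 34 tested members, 29 had a 95% interval of the difference in log2(FPKM + 0.5) that stayed within 0.5 of 0. The other 5 were Acta2, Col3a1, Col6a2, Col6a3 and Col15a1, for which larger differences in at least 1 direction are within the error. Adding 0.5 understates fold changes of low members, for which larger fold changes may lie within the error too. The difference of Col1a1, for example, was 0.16 with 0.5 added and 0.25 with 0.1 added. Some libraries were low or high for many members at once. KO 2 was the lowest KO library for 15 and the highest for 0 of the 34, and KO 4 the highest for 12. WT 3 was the lowest WT library for 17, and WT 5 the highest for 12. The median deviation of the members from their genotype mean was -0.09 in KO 2, 0.09 in KO 4, -0.1 in WT 3 and 0.05 in WT 5 on the log2 scale. Whether these libraries were also low or high over all genes tested was not examined.

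**Figure D4:**
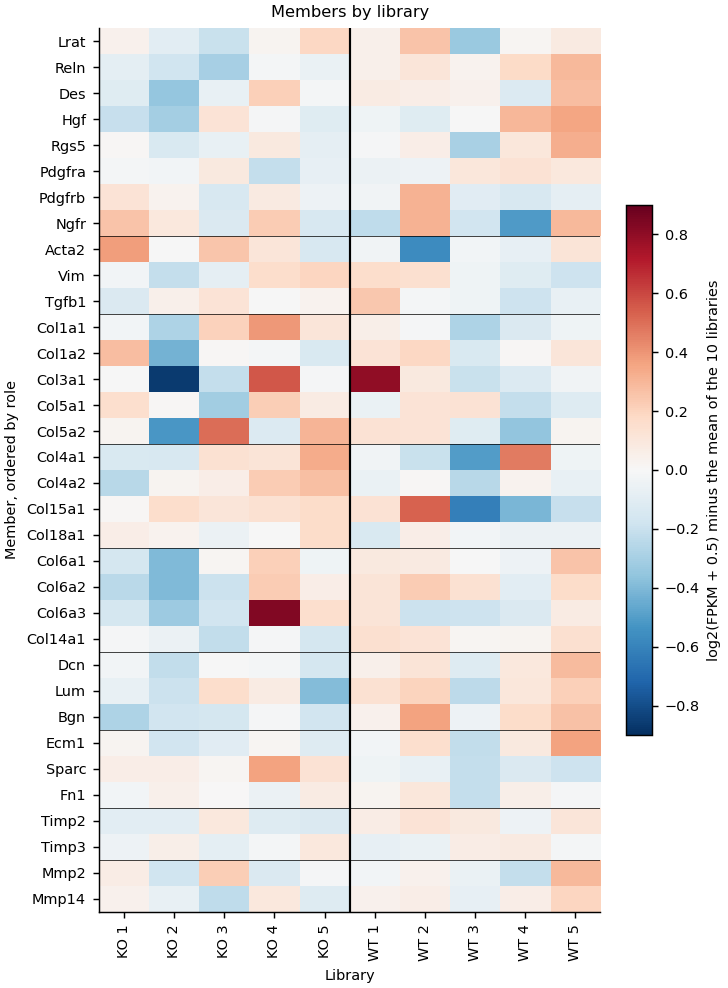
Log2(FPKM + 0.5) of the 34 tested members (rows, by role) in 5 KO and 5 WT libraries (columns), minus each member's mean over the 10 libraries, with a colour scale from -0.9 to 0.9. Col3a1 in KO 2 and WT 1 and Col6a3 in KO 4 are among the largest deviations, and KO 2 and WT 3 are low for many members.

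Other genes of quiescent stellate cells were examined beside the members. Of 20 tested, 2 fell, none rose and 18 were not called (median log2 difference -0.18, 17 negative), against 8.54% called, a median of -0.02 and 54.3% negative over all genes. Negative differences were also 13 of 16 among sinusoidal endothelial markers and 17 of 22 among genes of collagen processing. Cxcl12, a chemokine that stellate and endothelial cells make, was at 99.62, 82.38, 84.71, 87.67 and 78.59 FPKM in KO, against 119.58, 134.48, 110.75, 98.71 and 129.53 FPKM in WT (log2 difference -0.45, limma adjusted p = 0.013). Only KO 1 and WT 4 overlapped. Steap4, a metalloreductase, fell by 0.445 on the log2 scale with no overlap, and both calls held whichever library was left out. Colec10, a secreted collectin, did not overlap between genotypes but missed the threshold (-0.21, limma adjusted p = 0.069). Agtr1a, an angiotensin II receptor, was at 51.03 to 59.15 FPKM in KO and 57.23 to 66.63 FPKM in WT and was not called (-0.18, limma adjusted p = 0.081). The summed level of this list was 231 to 260.2 FPKM in KO and 277.2 to 325.1 FPKM in WT, much of it Cxcl12 and Agtr1a. That of the 8 member markers was 38.2 to 44.2 FPKM in KO and 39.9 to 52.5 FPKM in WT. Which cells the RNA of these genes came from, singly or summed, was not tested.

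Of 8 further genes of activated stellate cells, Tpm2, a tropomyosin, fell (-0.57, limma adjusted p = 0.034) and 7 were not called, with Spp1 at -0.22, Tpm1 at 0.08 and Postn at -0.13. The share called over all genes tested was 8.54%. Tpm2 lost its call without KO 2, KO 3, KO 4, KO 5, WT 1, WT 3, WT 4 or WT 5 (adjusted p up to 0.069). None of 21 genes of the TGF-beta pathway was called by limma (median -0.05, 4 with an unadjusted p under 0.05). The smallest p-values were those of the integrin chain Itgav (-0.28), the decoy receptor Bambi (-0.25), the inhibitor Smad7 (-0.40) and the latency protein Ltbp4 (-0.18).

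Genes of retinoid storage and signalling had 2 falls and 1 rise among 17 tested, with 14 not called, against 8.54% called over all genes. Retsat, retinol saturase, was at 410.16, 453.20, 402.85, 404.12 and 455.45 FPKM in KO, against 602.79, 535.91, 587.54, 694.43 and 830.90 FPKM in WT (log2 difference -0.60, limma adjusted p = 0.0068). Dhrs3, which reduces retinaldehyde to retinol, was at 64.19 to 74.25 FPKM in KO and 77.15 to 95.39 FPKM in WT (-0.33, limma adjusted p = 0.014). Neither overlapped, and both held whichever library was left out. Rbp4, the serum carrier of retinol, rose to 4719 ± 150.7 FPKM in KO, against 4179 ± 191.8 FPKM in WT (SD, n = 5 each, log2 difference 0.18, limma adjusted p = 0.047), and lost its call without any library but WT 2 and WT 3 (adjusted p up to 0.11). Rbp4 and Retsat are also expressed by hepatocytes, and both lay far above the stellate gene Lrat (2.71 FPKM in KO, 2.77 FPKM in WT). Which cells carried the called differences of Retsat, Dhrs3 and Rbp4 was not tested. The retinoic acid receptor Rara was not called (-0.41, limma adjusted p = 0.11).

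Among 20 ligands and receptors of the members, 1 rose, 1 fell and 18 were not called, against 8.54% called over all genes. Vldlr, a receptor of reelin and of lipoproteins, was at 2.36 to 5.02 FPKM in KO and 1.52 to 2.41 FPKM in WT (log2 difference 0.65, limma adjusted p = 0.034), with a call lost without KO 1, KO 2, KO 4, KO 5, WT 2, WT 4 or WT 5 (adjusted p up to 0.07). Sort1, sortilin, which pairs with Ngfr as a receptor, was at 0.58 to 0.76 FPKM in KO and 0.93 to 1.65 FPKM in WT (-0.49, limma adjusted p = 0.036), with a call lost without any library but WT 1, WT 2 and WT 4 (adjusted p up to 0.07). Pdgfa, a ligand of the PDGF receptors, was at 5.67 ± 1.13 FPKM in KO and 4.0 ± 1.15 FPKM in WT (SD, n = 5 each, limma adjusted p = 0.11), and the integrin chain Itga9 had a difference of -0.29 (limma adjusted p = 0.11).

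The machinery that modifies, exports and crosslinks collagen had 3 falls and no rise among 22 tested genes, with 19 not called (median -0.11), against 8.54% called and 4.56% called lower over all genes. Mia3, which loads procollagen into export carriers at the endoplasmic reticulum, was at 92.79, 91.91, 110.26, 92.04 and 103.29 FPKM in KO, against 129.04, 126.77, 123.72, 117.96 and 114.96 FPKM in WT. The libraries did not overlap (log2 difference -0.32, limma adjusted p = 0.011), and the call held whichever library was left out. Bmp1, which trims the C-terminal propeptide of fibrillar procollagens, was at 28.04 to 32.33 FPKM in KO and 32.89 to 42.39 FPKM in WT (-0.30, limma adjusted p = 0.024). Its call was lost without KO 3 or KO 4 (adjusted p up to 0.058). Loxl4, a crosslinking lysyl oxidase, was at 0.82 to 2.15 FPKM in KO and 1.99 to 3.85 FPKM in WT (-0.86, limma adjusted p = 0.025), with a call lost without KO 3, KO 4, KO 5 or WT 5 (adjusted p up to 0.06). Pcolce, which enhances that trimming, missed the threshold (-0.43, limma adjusted p = 0.066).

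Single matrix genes outside the members changed more than any member. Omd, osteomodulin, a small proteoglycan, was at 3.35, 2.48, 2.84, 3.26 and 3.43 FPKM in KO, against 0.68, 1.03, 1.4, 0.91 and 0.50 FPKM in WT (log2 difference 1.37, limma adjusted p = 9.6e-04), and 7 other proteoglycans of 8 tested were not called, with Prg4 at 0.32, Gpc1 at -0.32 and Prelp at -0.26. Of 17 basement membrane genes, 1 rose, 1 fell and 15 were not called. The share to set beside both lists is the 8.54% called over all genes tested. Npnt, nephronectin, an integrin ligand, was at 2.99 to 4.57 FPKM in KO and 0.91 to 1.48 FPKM in WT (log2 difference 1.42, limma adjusted p = 6.1e-04). It lies within 10 Mb of Etnppl, and as the design of the allele is not known here, an effect of DNA flanking the allele and one of the loss of Etnppl cannot be told apart. No member lies within that distance. Nid2, a nidogen that links laminin and collagen IV, was at 0.68, 0.73, 0.72, 0.75 and 0.77 FPKM in KO, against 1.30, 1.19, 1.13, 1.71 and 2.11 FPKM in WT (log2 difference -0.67, limma adjusted p = 0.012). Smoc2 (0.53) and Smoc1 (-0.11) were not called. The calls of Omd, Npnt and Nid2 held whichever library was left out.

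Of 31 other collagen genes in the table only 5 passed the filter, and Col5a3, the third chain of collagen V, rose (1.59 to 3.89 FPKM in KO, 1.09 to 2.29 FPKM in WT, log2 difference 0.81, limma adjusted p = 0.037). It lost its call without any library but KO 3 and WT 3 (adjusted p up to 0.081). Col12a1 (0.21), Col16a1 (-0.14) and Col13a1 (-0.06) were not called. Of 19 matrix glycoproteins, Crim1, a membrane protein that binds BMPs, rose (0.31, limma adjusted p = 0.028) and 18 were not called, with Efemp2 at -0.27, Efemp1 at -0.24 and Vwf at -0.38. Crim1 lost its call without KO 1, KO 4, KO 5, WT 1 or WT 4 (adjusted p up to 0.064). None of 15 other proteases and inhibitors was called by limma, with 2 at an unadjusted p under 0.05. Beside each of these lists stands the 8.54% called over all genes tested. The smallest p-values were those of plasminogen (Plg, -0.20, limma adjusted p = 0.051), Adam17 (-0.18), Mmp19 (-0.13) and Adamts1 (0.17).

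Markers of other cell types that can express the same matrix genes were read beside these results and beside the 8.54% called over all genes tested. None of 8 portal fibroblast markers (median 0.095, 0 with an unadjusted p under 0.05, Entpd2 0.33, Thy1 -0.18, Mfap4 0.19 and Fbln2 0.12) and none of 16 sinusoidal endothelial markers (median -0.09, 4 with an unadjusted p under 0.05, Tek -0.25, Stab2 -0.17, Fcgr2b -0.15 and Ehd3 -0.26) was called by limma. Of 7 smooth muscle and pericyte markers, Mylk, myosin light chain kinase, fell (9.06 to 10.03 FPKM in KO, 10.93 to 14.69 FPKM in WT, log2 difference -0.39, limma adjusted p = 0.014) and 6 were not called, with Kcnj8 at 0.22, Abcc9 at -0.15 and Smtn at 0.12. Of 6 cholangiocyte markers Sox9 fell (-0.56, limma adjusted p = 0.035, lost without any library but KO 1 and WT 5, adjusted p up to 0.078) and 5 were not called, with Tspan8 at 0.33 and Cdh1 at 0.17. Only 1 mesothelial marker passed the filter, Krt19 (0.10), which was not called, and none of 7 lymphocyte markers was called by limma, with 2 at an unadjusted p under 0.05 (Nkg7 -0.53 and Jchain -0.48) and Cd3g at -0.21 and Cd79a at 0.07.

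Some markers of Kupffer cells, the resident macrophages, were also lower. Of 18 tested, 6 fell, none rose and 12 were not called (median -0.26), against 8.54% called and 4.56% called lower over all genes. The 6 were Clec4f at -0.51, C1qa at -0.46, Vsig4 at -0.43, Id3 at -0.69, Csf1r at -0.37 and Folr2 at -0.58. Among those not called, Marco (0.75), Spic (0.05) and Nr1h3 (0.02), named after their values were seen, had positive differences. Csf1r lost its call without KO 1, KO 2, KO 5, WT 1, WT 2 or WT 3, and Folr2 without any library but KO 1, KO 3 and WT 5. Their summed level was 344.8 to 442.8 FPKM in KO and 449.6 to 507.6 FPKM in WT, and no marker of the list was at 0 in all libraries. The summed level of the endothelial markers was 268 to 304.5 FPKM in KO and 294.7 to 313 FPKM in WT. Hepatocyte markers summed to 75580 to 81400 FPKM in KO and 69130 to 74680 FPKM in WT, with Cps1, a urea cycle enzyme, called higher (0.58, limma adjusted p = 0.0034) and 14 of 15 not called, among them Hnf4a (-0.30), Pck1 (0.25) and F2 (-0.10). FPKM is relative to the library total, and the part of these cell types in the falls of Reln, Bgn, Cxcl12 and the other genes was not tested.

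**Figure D5:**
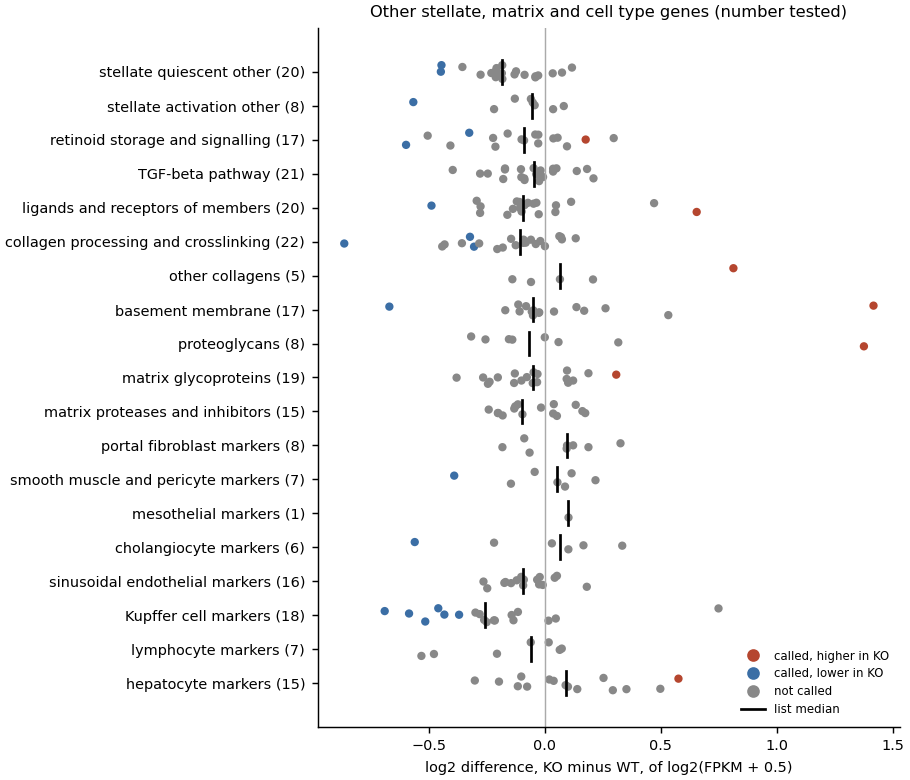
Log2 difference (KO minus WT, horizontal axis) of tested genes in 19 lists of stellate, matrix and cell type genes other than the members, with the number tested in brackets; points are genes, coloured where called, and vertical marks are list medians. The quiescent stellate list has a median of -0.18 and the Kupffer list one of -0.26, and Npnt and Omd stand apart at 1.42 and 1.37.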

How the data were processed

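Poly-A RNA of snap-frozen livers was sequenced in paired ends, 5 libraries per genotype. The authors deposited FPKM per gene and library, not counts. The submitters' processing notes name STAR, RSEM, R 4.0.2, DESeq, DESeq2 and mm10, without roles. The annotation release and strand setting of the counting are not given in the sources used here, so overlapping genes may share reads: 9 members overlap exons of another gene on the opposite strand and 4 on the same strand (GENCODE M21, GRCm38).

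Libraries were mapped by their labels. FPKM as deposited was taken to log2(FPKM + 0.5), which understates fold changes of low genes, and fitted with limma 3.58.1 in R 4.3.3 (genotype only, eBayes with trend and robust options, two-sided) over the 12247 genes whose mean reached 0.5 FPKM. Because values are FPKM, no count model was used. Single values were compared by exact permutation with scipy 1.17.1, and correlations by 100000 permutations. The fit was also run on simulated data, and how often it recovered small differences is not given here. Alternatives were 2 pseudocounts, 2 filters, 3 scalings, a non-robust fit, weighted libraries, a block for replicate number, and each library left out.

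Members and the 19 accompanying lists were chosen with earlier results of these data known, so lists are described by counts and medians only. The genes named are all members, Etnppl and, in each list, the called genes (the 6 with the smallest p at most), filled to 4 by p. Of all list entries 1 was not found in the table. Promoter windows matched 27 of 35 members. A few genes of the accompanying lists are not reported here and were left out of the lists' counts, medians and sums.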

Additional observations from a re-analysis of the deposited data

Results flagged for a closer look

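Single libraries stood far from the other 4 of their genotype in 9 of 218 groups searched, over 109 genes, where chance at 1 in 20 gives 10.9. Of these, 4 were members. Pdgfrb was at 2.10 FPKM in WT 2, with the other WT libraries at 1.4 to 1.55 FPKM. Col3a1 was at 3.68 FPKM in WT 1, against 1.59 to 2.06 FPKM in the other WT libraries. Timp1 was at 0.41 FPKM in KO 4, with the other KO libraries at 0 to 0.07 FPKM. Timp2 was at 4.35 FPKM in KO 3, and at 3.66 to 3.76 FPKM in the other KO libraries.

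Among the accompanying genes, Sort1 was at 1.65 FPKM in WT 2, with the other WT libraries at 0.93 to 1.04 FPKM. Itga9 was at 4.28 FPKM in WT 3 and at 3.16 to 3.42 FPKM in the other WT libraries. Prg4, a lubricating proteoglycan, was at 30.81 FPKM in KO 3, with the other KO libraries at 24.16 to 26.08 FPKM, and at 26.83 FPKM in WT 1, with the other WT libraries at 18.88 to 20.44 FPKM. Entpd2, a portal fibroblast marker, was at 1.07 FPKM in KO 1 and at 1.86 to 2.09 FPKM in the other KO libraries.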

How the results depend on the processing

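The 1 higher and 2 lower members became 0 and 0 without the filter, when adjustment ran over 21111 genes, and 0 and 0 with the replicate number as a block. The lower members became 1 under each scaling (quantile, upper-quartile or median-of-ratios), which left Reln uncalled. Other pseudocounts, a 2 FPKM filter, a non-robust fit and library weights left both counts as they were. Without 1 library, which leaves fewer samples, higher members ranged from 0 to 1 and lower members from 0 to 2. The members' median log2 difference ranged from -0.056 to -0.0052 without 1 library and was 0.012 after quantile normalization.

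The replicate numbers gave no clear sign of pairing, though 5 pairs are too few to exclude it. Same-numbered KO and WT libraries had correlations of their deviations from -0.207 to 0.208. Of 5 KO libraries, 2 correlated best with their own number. With the block 230 genes were higher and 321 lower over the whole table, against 488 and 558, and the adjusted p was 0.063 for Reln, 0.056 for Bgn and 0.091 for Sparc.

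Of 668 member values under all alternatives, 605 kept direction and side of the threshold, 34 lost a call, 0 gained one and 29 changed sign; the cause was not tested. The sign changes were all of small, uncalled differences. Lrat was 0.0049 and Mmp2 0.0255 after quantile normalization, and Timp3 was 0.0189 with quantile, 0.0136 with upper-quartile and 0.0141 with median-of-ratios scaling, and 0.0124 with library weights. Without 1 library the log2 differences ranged from -0.11 to 0.038 for Lrat, -0.014 to 0.099 for Pdgfrb, -0.035 to 0.068 for Vim, -0.016 to 0.091 for Tgfb1, -0.040 to 0.22 for Col5a2 and -0.062 to 0.23 for Col6a3. They ranged from -0.033 to 0.047 for Fn1, -0.025 to 0.021 for Timp3 and -0.071 to 0.058 for Mmp2. For accompanying genes, which are not among the 668 values, they ranged from -0.12 to 0.017 for Col13a1, -0.019 to 0.17 for Cd79a and -0.0041 to 0.32 for Cdh1. The log2 ratio difference ranged from -0.082 to 0.097 for Col4a1 to Col4a2 and from 0.34 to 0.62 for Col1a1 to Col1a2. The correlation of Col1a1 with Col3a1 was 0.62 at a pseudocount of 1, no longer past an unadjusted p of 0.05. Reads per library are not given here, so counting error in the 13 members under 2 FPKM could not be computed.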
